A study of Mus musculus with 70 samples.

Results

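B cells sorted from the blood of susceptible (SUS) mice were compared with B cells of unstressed control (CON) mice, with 6 libraries of RNA sequencing in each group. These 12 libraries were chosen by their labels, which give a cell type and a condition, out of 70 libraries in the series. The mice were male C57BL/6J animals, 7 to 8 weeks old at the first defeat. SUS mice were defeated daily over 10 days by aggressive CD-1 males, a protocol named chronic social defeat stress (CSDS), and then avoided a social target in the social interaction test, whereas CON mice were not defeated. The labels give no genotype or agent beyond this for either group. Leukocytes were stained for CD11b, Ly6C, Ly6G, B220 and CD90.2 after lysis of red cells, and sorted by flow cytometry. The source field of the labels reads brain, whereas the design text of the series and the methods of the study describe blood. The description here follows the methods, in which these leukocytes were sorted from trunk blood, and the source field was not reconciled with them. The labels name no mouse, so the p-values below measure the spread between libraries, and whether libraries of different cell types came from the same mice was not given.

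B cells carry immunoglobulin on their surface as the antigen receptor, signal through the paired chains CD79A and CD79B, and present antigen on MHC class II. Blood holds mostly naive recirculating B cells, with a few cells that have just left the bone marrow, marginal zone-like cells, B-1 cells and antibody-secreting cells. Stress hormones reach these cells through nuclear and cell surface receptors, the glucocorticoid receptor among them. Cytokines of the interleukin 6 family signal through STAT3, which induces SOCS3, an inhibitor of the same pathway.

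The libraries carried the B cell label in their RNA. Cd79a, which encodes the signalling chain CD79A, stood at 1280 to 1415 CPM (the gene's counts scaled to normalized library size) in CON and at 1027 to 1657 CPM in SUS, and Ms4a1, which encodes CD20, at 460 to 1091 CPM and at 370 to 612 CPM. In the 24-library fits described below, Cd79a was at 0.868 to 9.44 CPM in T cells and at 0.0799 to 2.11 CPM in Ly6C-high monocytes. The B cell libraries held 30140183 to 42074062 counts each. Library CON 38 had the lowest median correlation with the other libraries (Pearson's r of log2 CPM, 0.940 against 0.949 to 0.968 in the other 11) and the highest mitochondrial share, at 18.4%. The summed share of Gm23935 and Gm26917, gene models that hold ribosomal RNA sequence, formed separate classes, at 9.72% to 11.4% in CON 35, CON 41, SUS 39 and SUS 48 and at 27.4% to 40.8% in the other 8 libraries. Each class held libraries of both groups, and this share averaged 24.5% ± 10.4 in CON and 25.7% ± 12.9 in SUS (SD, n = 6 each, exact permutation p = 0.827). The mitochondrial share was 10.2% ± 4.71 in CON and 8.09% ± 2.67 in SUS (exact permutation p = 0.405), and total counts averaged 38228932 ± 2279098 in CON and 34718827 ± 4549400 in SUS (exact permutation p = 0.115).

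No gene passed the threshold between SUS and CON B cells. Of 15953 genes tested with edgeR's quasi-likelihood test, 0 (0%) reached a Benjamini-Hochberg adjusted p under 0.05 together with an absolute log2 fold change of 1, and 0 reached the adjusted p alone. An unadjusted p under 0.05 was found for 469 genes, 2.94% of those tested, where a threshold of that size would pass 5% of genes if no gene differed and genes were independent. Of these, 263 (1.65%) were higher and 206 (1.29%) were lower in SUS. The median log2 fold change of all genes was -0.01 and the median standard error 0.27. The 95% interval lay within 1 log2 unit of 0 for 9421 genes (59.1%) and within 0.5 for 4926 genes, so that a doubling or halving lay outside the interval of most genes, while smaller differences were within it for many. DESeq2 on the same 12 libraries called 36 of 20051 genes (0.18%), 32 higher and 4 lower, with 40 at the adjusted p alone and 1006 at an unadjusted p under 0.05. Of the 32 called higher, 16 had a mean under 50 counts and 8 belonged to the marker lists of other blood cells given below. The range of fold changes against p is shown in the plot of all genes.

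**Figure D1:**
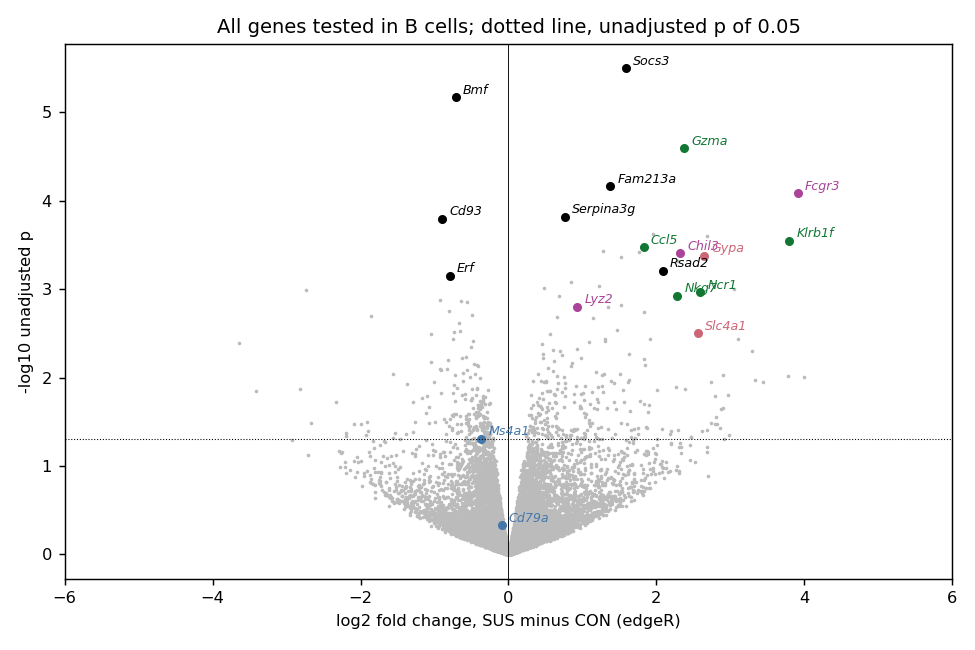
Each point is 1 of 15953 genes, with the log2 fold change of SUS over CON B cells on the x axis and −log10 of the unadjusted edgeR p on the y axis. Socs3 (log2 fold change 1.59) and Bmf (-0.71) stand highest, and no gene reached an adjusted p under 0.05.

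The genes nearest to the threshold were Socs3, higher in SUS, and Bmf, lower in SUS. Socs3 (ENSMUSG00000053113, chromosome 11, 117966079 to 117970047, minus strand) encodes the suppressor of cytokine signalling that binds gp130 and JAK kinases. Its level ran from 5.24 through a median of 8.53 to 11.4 CPM in CON, and from 16.3 through 22.3 to 40.1 CPM in SUS. Every SUS library stood above every CON library, with SUS 48 highest and CON 35 and CON 38 lowest. The means were 8.16 ± 2.58 CPM and 24.5 ± 8.9 CPM (SD, n = 6 each). The log2 fold change was 1.59 (SE 0.25, 95% interval 1.07 to 2.11, edgeR adjusted p = 0.0511). The fold change was 1.37 without libraries CON 38, SUS 48 and SUS 51, and 1.24 with the level of red cell markers as a covariate. It stayed between 1.24 and 1.93 under the alternatives, so that the covariate gave the lowest value. This range, like those of single genes below, leaves out the fits with libraries thinned to equal depth and with at least 10 counts in every library. With DESeq2 the adjusted p was 1.08e-05.

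The 300 bases around the annotated start of Socs3 are shown since this gene led the comparison and its promoter holds a copy of the STAT-type motif, TTCNNNGAA, in capitals. The sequence covers chr11:117969317-117969616 of GRCm38.p6, on the minus strand, 250 bases before the RefSeq start and 50 after it.
Socs3: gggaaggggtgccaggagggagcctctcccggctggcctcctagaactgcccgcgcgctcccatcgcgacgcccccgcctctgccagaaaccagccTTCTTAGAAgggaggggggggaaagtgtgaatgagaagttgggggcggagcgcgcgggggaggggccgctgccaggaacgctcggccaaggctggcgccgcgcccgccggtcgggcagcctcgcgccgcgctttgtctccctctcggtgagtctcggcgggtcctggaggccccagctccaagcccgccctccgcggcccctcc
The match began at position -154 from the start. Searched on both strands, of which the motif is its own reverse complement, TTCNNNGAA was present in 8.3% of 32851 RefSeq promoters and in 6.97% of 12419 promoters of genes tested in B cells. A match of letters describes the window and does not show that a factor was bound.

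Bmf (ENSMUSG00000040093, chromosome 2, 118528757 to 118549687, minus strand) encodes a BH3-only protein that promotes apoptosis. It ran from 55.6 through a median of 67.1 to 77.1 CPM in CON and from 36.4 through 40.3 to 49.3 CPM in SUS. No SUS library reached the lowest CON library. The log2 fold change was -0.71 (SE 0.12, 95% interval -0.96 to -0.47, edgeR adjusted p = 0.0543), and it stayed between -0.79 and -0.67 under the alternatives. DESeq2 gave an adjusted p of 5.47e-06, with a fold change under the fold threshold.

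**Figure D2:**
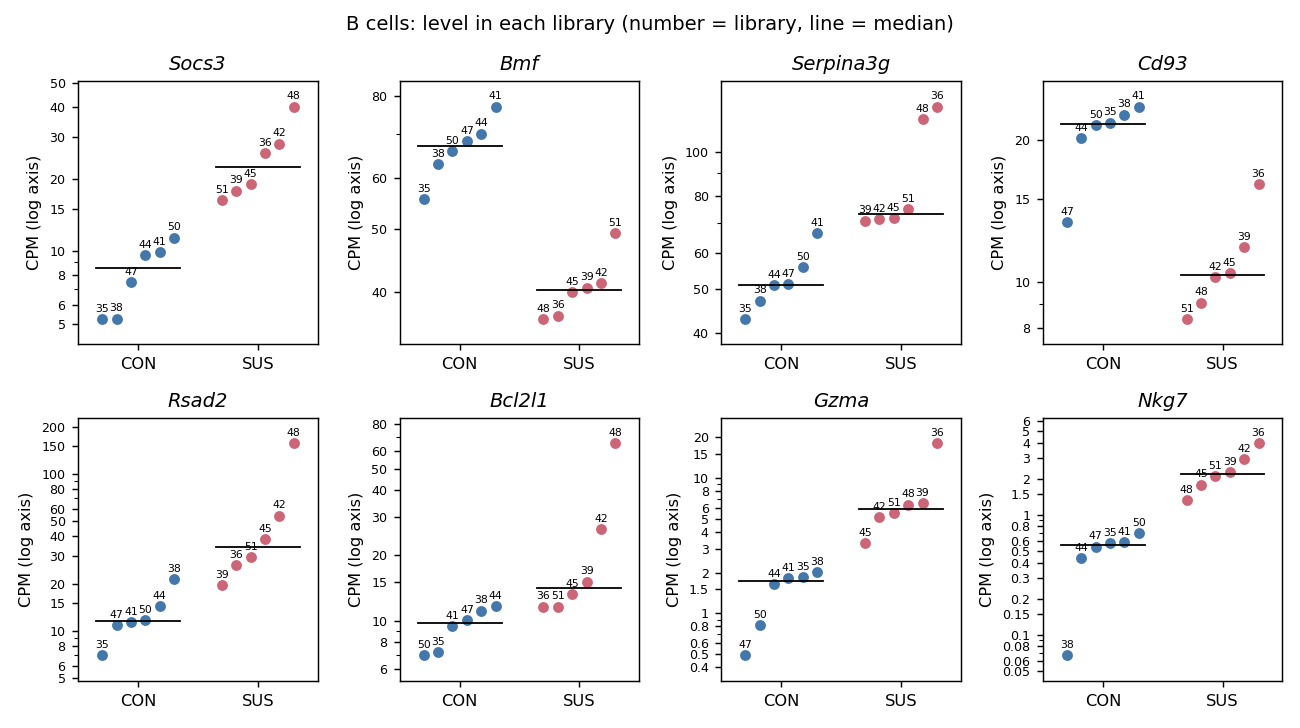
CPM on a log axis for 8 genes in each of the 6 CON and 6 SUS B cell libraries, with each point labelled by its library number and a line at the group median. Socs3, Bmf, Serpina3g, Gzma and Nkg7 did not overlap between the groups, while Cd93, Rsad2 and Bcl2l1 overlapped and SUS 48 stood highest for Rsad2 (157 CPM) and Bcl2l1 (65.4 CPM).

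Without overlap between the groups were 17 genes with every SUS library above every CON library (0.107% of genes tested) and 15 with every SUS library below (0.094%). Of these, 11 and 15 had a mean of at least 50 counts, and the 10 of each kind with the smallest p are described. Those higher in SUS were Socs3, Gzma, Fam213a, Serpina3g, Ccl5, Nkg7, Tprkb, Ms4a4b, Dnajc15 and Gm43133. Serpina3g, a serine protease inhibitor of lymphocytes, ran from 43.0 through 51.2 to 66.4 CPM in CON and from 70.7 through 73.3 to 126 CPM in SUS (log2 fold change 0.76, SE 0.16, edgeR adjusted p = 0.365). Fam213a, a peroxiredoxin-like redox gene, ran from 9.48 through 14.3 to 19.0 CPM in CON and from 19.2 through 28.6 to 72.7 CPM in SUS. Its log2 fold change of 1.38 (SE 0.28, edgeR adjusted p = 0.263) was 0.47 with the level of red cell markers as a covariate. Gzma, Nkg7, Ccl5 and Ms4a4b are genes of cytotoxic lymphocytes and are given with the NK cell markers below.

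Those lower in SUS without overlap were Bmf, Erf, Gm2447, Cplx2, Akap12, Ighv11-2, Gnal, Leo1, Palm and 9330020H09Rik. Erf, an ETS family transcriptional repressor, ran from 8.99 through 11.6 to 14.2 CPM in CON and from 6.13 through 6.58 to 7.90 CPM in SUS (log2 fold change -0.79, SE 0.20). Akap12, a scaffold for protein kinase A, ran from 66.3 through 78.4 to 90.02 CPM in CON and from 32.2 through 54.5 to 65.7 CPM in SUS (-0.56, SE 0.15). Cplx2, a complexin of vesicle fusion, ran from 7.71 through 9.92 to 17.0 CPM and from 3.13 through 6.00 to 6.49 CPM (-0.93, SE 0.25). In each of these 3 genes the lowest CON library stood just above the highest SUS library. Gnal, Palm and 9330020H09Rik overlap genes on the other strand, and as the strand setting of the counting was not given, their reads cannot be told apart from those of their partners. The STAT-type motif was present in 3 of 9 promoters of the 10 genes without overlap that were higher (33.3%, in Nkg7, Serpina3g and Socs3). It was present in 0 of 9 promoters of the 10 that were lower, and in 6.97% of promoters of genes tested in B cells. Each set had 7 of its 10 genes in the promoter table. The interferon response-type motif given below was in 2 of the 9 promoters of higher genes (22.2%, in Gzma and Tprkb). That motif was in 0 of the 9 promoters of lower genes and in 3.11% of promoters of tested genes. The genes were picked by their separation in these data, and whether these shares differ from those of all tested genes was not tested.

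The lists of B cell genes are described by how many tested members had an unadjusted p under 0.05, which 1.65% of all genes had as higher and 1.29% as lower in SUS. Of 23 tested cytokines and cytokine receptors of B cells, 2 were higher, Socs3 and Il6st, and 1 was lower, Tnf, with a median log2 fold change of -0.02, beside -0.01 over all genes. Il6st, which encodes gp130, the receptor chain shared by the interleukin 6 family, ran from 14.6 through 16.9 to 19.9 CPM in CON and from 19.2 through 23.0 to 30.8 CPM in SUS (log2 fold change 0.47, SE 0.15, unadjusted p = 0.00597). Tnf, which encodes tumour necrosis factor, ran from 4.72 through 7.03 to 11.7 CPM in CON and from 2.76 through 4.32 to 8.09 CPM in SUS (-0.74, SE 0.31). The groups of Il6st and of Tnf overlapped. Il10, the cytokine of regulatory B cells, was at 0 to 0.0272 CPM in CON and at 0 CPM in SUS, and Il6 had 0 counts in all 12 libraries.

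The B cell programme itself showed small differences. Of 31 genes of the B cell receptor and its signalling, 0 were higher and 2 lower at an unadjusted p under 0.05, beside 1.29% of all genes lower, with a median log2 fold change of -0.04, and the 95% intervals of all 31 lay within 1 log2 unit of 0. Btk, the Tec kinase below the receptor, ran from 134 through 143 to 182 CPM in CON and from 110 through 126 to 132 CPM in SUS without overlap (log2 fold change -0.28, SE 0.10), with an antisense gene model at the same place. The other was Ms4a1 (-0.37, SE 0.18), which also has an antisense partner. Cd79a differed by -0.09 (SE 0.12). Of 24 B lineage transcription factors, 0 were higher and 1 was lower, Bcl6, the repressor of germinal centre cells (-0.33, SE 0.14). Pax5, which maintains B cell identity, differed by -0.10 (SE 0.16) and Ebf1, an early B cell factor, by -0.02 (SE 0.11).

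Genes of B cell subsets were sorted by maturity. Of the 12 transitional and immature B cell genes, 7 passed the filter on low counts, and 3 of these 7 were lower at an unadjusted p under 0.05 and 0 higher, beside 1.29% of all genes lower. The median log2 fold change was -0.32, and -0.15 without CON 38. Cd93, which marks B cells newly arrived from the bone marrow, ran from 13.4 through 21.6 to 23.5 CPM in CON and from 8.36 through 10.3 to 16.1 CPM in SUS. Only CON 47 lay within the SUS range. The log2 fold change was -0.89 (SE 0.19, edgeR adjusted p = 0.365), between -1.11 and -0.73 under the alternatives. Myb, a transcription factor of progenitors, differed by -1.01 (SE 0.36) and Sox4, a factor of early lymphocytes, by -0.70 (SE 0.30). Without CON 50, 1 of the 7 genes was lower at that threshold. Vpreb3, which is expressed in immature B cells, differed by -0.08 (SE 0.13) and Cd24a, a surface protein high on immature cells, by -0.32 (SE 0.18). In bulk samples, a smaller share of cells of a type and less RNA per cell cannot be told apart.

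Of 9 follicular B cell genes none had an unadjusted p under 0.05 in edgeR, and all 9 intervals lay within 1 log2 unit of 0. Fcer2a, which encodes the low-affinity IgE receptor CD23, stood at 553 to 783 CPM in CON and at 539 to 806 CPM in SUS (log2 fold change -0.11, SE 0.12). Of 10 marginal zone genes, 1 was higher, Plac8 (0.32, SE 0.15). Of 15 genes of B-1 and age-associated B cells, 2 were higher, beside 1.65% of all genes, Ahnak (0.31, SE 0.13) and S100a6 (1.21, SE 0.44), and the median was 0.31. With the red cell covariate Ahnak was at 0.17, S100a6 at 0.49 and the median at 0.17, with 1 member higher. Tbx21, which encodes T-bet and is shared with NK and T cells, was at 0.204 to 1.87 CPM in CON and at 0.0588 to 4.76 CPM in SUS. Of 11 plasma cell genes, 1 was lower, Sdc1, which encodes CD138, at 10.8 through 15.2 to 26.2 CPM in CON and 7.36 through 8.87 to 11.8 CPM in SUS (-0.80, SE 0.22). Jchain, the joining chain of secreted IgM and IgA, ran from 0.0198 to 7.17 CPM in CON and from 0.0364 to 2.41 CPM in SUS (-1.69, SE 0.91). Xbp1, a factor of antibody-secreting cells, differed by -0.0049 (SE 0.16).

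**Figure D3:**
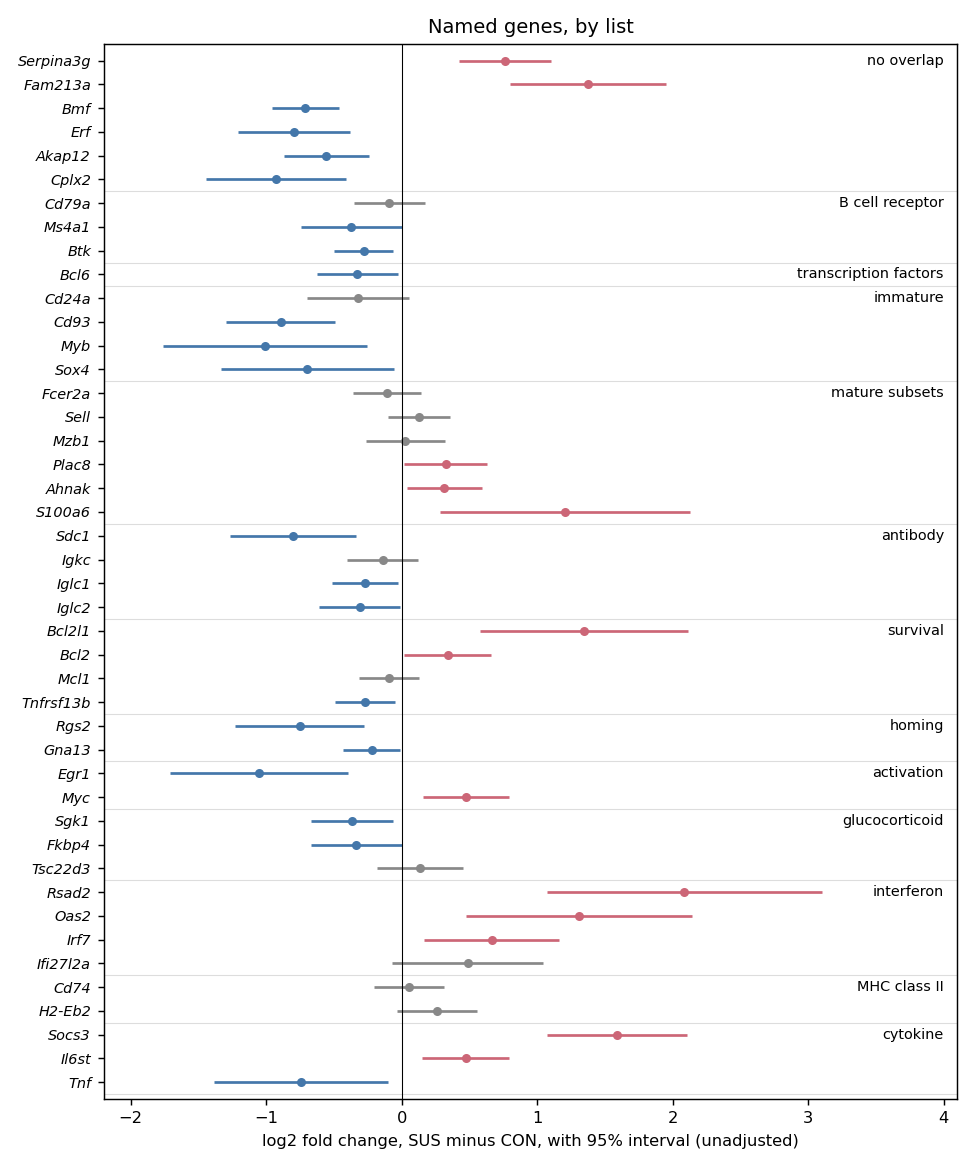
Log2 fold change of SUS over CON B cells for genes named by the rule, grouped by list, with bars for the unadjusted 95% interval of edgeR. Red and blue mark an unadjusted p under 0.05, and the intervals of the transitional genes Cd93 and Myb lie below 0 and those of Socs3 and the interferon gene Rsad2 above it, while that of Cd79a covers 0.

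Immunoglobulin genes gave no difference past a threshold adjusted over the measures. Of 10 tested constant genes, 0 were higher and 2 lower at an unadjusted p under 0.05, beside 1.29% of all genes lower. The 2 were Iglc1 (log2 fold change -0.27, SE 0.12) and Iglc2 (-0.31, SE 0.14). Both encode lambda light chains, Iglc2 has close copies among which reads can be split, and without CON 38 the count was 0. The lambda share of light chain constant counts was 20.3% ± 1.58 in CON and 19.1% ± 2.12 in SUS (SD, n = 6 each), a difference of -1.12 percentage points (exact permutation test, 2-sided, p = 0.336, adjusted p = 0.486 over 6 measures). Class-switched constant genes made up 0.522% ± 0.31 of heavy chain constant counts in CON and 0.681% ± 0.234 in SUS (exact permutation p = 0.342, adjusted p = 0.486). The log2 ratio of Ighd to Ighm, which encode IgD and IgM, was -1.19 ± 0.18 in CON and -0.996 ± 0.17 in SUS, a difference of 0.20 (exact permutation p = 0.0844, adjusted p = 0.344). Ighm stood at 2890 to 3621 CPM in CON and at 2421 to 3517 CPM in SUS. Of 99 heavy chain variable genes 0 were higher and 3 lower at an unadjusted p under 0.05, with a median of -0.08. Of 94 kappa variable genes 0 were higher and 3 lower, with a median of -0.11. Over all genes 1.65% were higher and 1.29% lower, so these counts are a few genes in each class. Ighv11-2, a heavy chain segment used by B-1 cells, ran from 1.52 through 2.60 to 3.91 CPM in CON and from 0.219 through 0.774 to 1.01 CPM in SUS without overlap (log2 fold change -1.87, SE 0.53, edgeR adjusted p = 0.859).

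Of 26 genes of B cell survival and NF-kappaB, 2 were higher and 1 was lower, beside 1.65% and 1.29% of all genes, with a median of 0.02 and the intervals of 24 within 1 log2 unit of 0. Bcl2l1, which encodes the anti-apoptotic protein BCL-XL, ran from 6.93 through 9.75 to 11.7 CPM in CON and from 11.6 through 14.2 to 65.4 CPM in SUS (log2 fold change 1.35, SE 0.37). The groups overlapped narrowly and SUS 48 stood far above the next library, SUS 42 at 26.3 CPM. With the red cell marker level as a covariate the log2 fold change of Bcl2l1 was 0.15. Bcl2, another anti-apoptotic gene, differed by 0.34 (SE 0.15), with an antisense gene model at the same place, and Tnfrsf13b, which encodes the BAFF and APRIL receptor TACI, by -0.27 (SE 0.11). Tnfrsf13c, the BAFF receptor, differed by -0.17 (SE 0.14) and Mcl1, which B cells need to survive, by -0.09 (SE 0.11).

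Of 24 homing genes, 0 were higher and 2 lower, beside 1.29% of all genes lower. Rgs2, a regulator of G protein signalling, ran from 14.7 through 18.9 to 39.2 CPM in CON and from 12.1 through 12.6 to 17.9 CPM in SUS (log2 fold change -0.75, SE 0.23), and Gna13, the G protein that confines B cells to follicles, differed by -0.22 (SE 0.10). Cxcr4, the receptor that holds cells in bone marrow, differed by 0.35 (SE 0.20), Cxcr5, the follicle homing receptor, by 0.01 (SE 0.11), and S1pr1, the receptor for exit from lymphoid organs, by -0.02 (SE 0.13). The chemokine receptor and sphingosine receptor genes named here had intervals that covered 0.

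Genes that answer stress hormones and recent activation were examined next. Of 22 glucocorticoid receptor and target genes, 0 were higher and 2 lower, beside 1.29% of all genes lower. The median was 0.12, and 0.0045 without CON 38. Sgk1, a kinase induced by glucocorticoids, ran from 21.4 through 27.9 to 33.9 CPM in CON and from 18.6 through 21.8 to 24.7 CPM in SUS (log2 fold change -0.37, SE 0.14). Fkbp4, a chaperone of the receptor, differed by -0.34 (SE 0.16). Nr3c1, the receptor itself, differed by -0.19 (SE 0.14, 95% interval -0.49 to 0.10), Fkbp5 by 0.25 (SE 0.19, 95% interval -0.15 to 0.65) and Tsc22d3, which encodes GILZ, by 0.13 (SE 0.15), with Tsc22d3 at -0.03 under the red cell covariate. The glucocorticoid response-type motif, ACANNNTGT, was present in 4 of 35 promoters of the list (11.4%). It was present in 6.85% of all promoters and in 4.45% of promoters of genes tested in B cells. Whether these shares differ was not tested.

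Of 19 adrenergic and cAMP genes, 0 had an unadjusted p under 0.05. Of 15 circadian clock genes, 0 had an unadjusted p under 0.05. Of 27 immediate early and activation genes, 1 was higher, Myc, the growth regulator (0.47, SE 0.15), and 1 was lower, Egr1, a transcription factor induced by receptor signals. Egr1 ran from 4.26 through 7.44 to 16.5 CPM in CON and from 2.65 through 4.41 to 5.48 CPM in SUS (log2 fold change -1.05, SE 0.31). The SUS libraries were closely spaced and the CON libraries were not, with CON 41 below 3 SUS libraries. Within the 4 libraries with a low share of Gm23935 and Gm26917, the log2 fold change of Egr1 was -0.17. Of 20 heat shock and unfolded protein genes and of 22 proliferation genes, 0 had an unadjusted p under 0.05, and Mki67, a gene of dividing cells, stood at 0.759 to 6.82 CPM in CON and at 2.94 to 14.3 CPM in SUS.

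Of 29 type I interferon response genes, 7 were higher in SUS at an unadjusted p under 0.05 and 0 lower, beside 1.65% of all genes higher. The median log2 fold change was 0.41, and 28 of the 29 were above 0. Without library SUS 48 the count was 3 and the median 0.12, and with the red cell covariate the count was 3 and the median 0.05. No member had an edgeR adjusted p under 0.05. Rsad2 (chromosome 12), which encodes the antiviral enzyme viperin, ran from 6.98 through 11.5 to 21.5 CPM in CON and from 19.7 through 34.0 to 157 CPM in SUS. Only CON 38 and SUS 39 overlapped, and SUS 48 stood far above the other SUS libraries. The log2 fold change of Rsad2 was 2.08 (SE 0.47, edgeR adjusted p = 0.554), 0.64 with the red cell covariate and 1.64 without CON 38, SUS 48 and SUS 51. Irf7, the factor that amplifies interferon, ran from 25.0 through 36.5 to 39.4 CPM in CON and from 29.9 through 46.2 to 103 CPM in SUS (0.66, SE 0.24), and overlaps Phrf1 on the other strand. Oas2, an antiviral synthetase, differed by 1.31 (SE 0.40), Isg20, an exonuclease, by 0.88 (SE 0.33) and Usp18, which removes ISG15 from proteins, by 0.65 (SE 0.24). Isg15, a classical member, was at 0.759 to 3.79 CPM in CON and at 1.18 to 7.93 CPM in SUS (0.34, SE 0.54), and Ifit3 differed by 0.44 (SE 0.28).

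The promoter of Rsad2 is shown since this gene was the member furthest from 0. The sequence covers chr12:26456403-26456702 of GRCm38.p6, on the minus strand, with the interferon response-type motif in capitals, which is GAAA, 2 bases of any kind and GAAA again. Here it is its reverse complement, at position -120.
Rsad2: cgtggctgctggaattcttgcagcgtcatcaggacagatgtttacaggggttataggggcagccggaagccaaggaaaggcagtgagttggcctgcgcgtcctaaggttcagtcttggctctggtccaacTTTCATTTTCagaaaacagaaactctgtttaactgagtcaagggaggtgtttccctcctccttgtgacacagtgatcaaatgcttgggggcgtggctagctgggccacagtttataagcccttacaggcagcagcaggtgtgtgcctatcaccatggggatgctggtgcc
Searched on both strands, this motif was present in 12 of 26 promoters of the interferon list (46.2%, with 21 of 30 genes in the promoter table), in 3.44% of all promoters and in 3.11% of promoters of genes tested in B cells.

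Of 15 MHC class II presentation genes, 0 had an unadjusted p under 0.05, 14 were above 0 and the median was 0.09. Cd74, the invariant chain, stood at 7727 to 9423 CPM in CON and at 7369 to 11548 CPM in SUS (log2 fold change 0.05, SE 0.13), and was at -0.07 under the red cell covariate.

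Markers of other blood cells were also measured. Over the lists of T cell, NK cell, monocyte, neutrophil, dendritic cell, red cell, platelet and basophil markers, 66 of the 100 genes listed passed the filter on low counts, and 25 of the 66 (37.9%) had an unadjusted p under 0.05, all 25 higher in SUS, beside 1.65% of all genes. The filter asks for enough counts in as many libraries as 1 group holds, so a marker near 0 in CON could pass through the SUS libraries alone, and these counts and the medians below are a description that the filter partly sets. Of 41 tested markers with a mean of at least 50 counts, 20 were higher and 0 lower at that threshold, and of 38 with at least 10 counts in every CON library, 16 were higher. None had an edgeR adjusted p under 0.05. Of the basophil markers none passed the filter on low counts, and Mcpt8, Cpa3 and Prss34 had 0 counts in all 12 libraries.

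NK cell markers stood furthest apart, with 6 of 9 tested members higher, 0 lower and a median log2 fold change of 2.28. Their summed level was 4.02 to 13.2 CPM in CON and 19.5 to 48.8 CPM in SUS without overlap. Gzma, which encodes granzyme A, ran from 0.489 through 1.73 to 2.02 CPM in CON and from 3.28 through 5.94 to 18.0 CPM in SUS (log2 fold change 2.37, SE 0.44, edgeR adjusted p = 0.137). Nkg7, a protein of cytotoxic granules, ran from 0.0674 through 0.562 to 0.702 CPM in CON and from 1.32 through 2.19 to 3.95 CPM in SUS (2.28, SE 0.60), and Ncr1, the NK receptor NKp46, differed by 2.59 (SE 0.68). SUS 36 had the highest sum, and the count of members higher was 5 without it. Ccl5, a chemokine of cytotoxic lymphocytes outside the list, ran from 0.462 through 1.48 to 3.64 CPM in CON and from 4.52 through 5.22 to 10.6 CPM in SUS (1.83, SE 0.42). Ms4a4b, a T and NK cell membrane gene outside the list, differed by 1.91 (SE 0.58).

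The summed T cell markers stood at 6.43 to 10.5 CPM in CON and at 12.3 to 22.7 CPM in SUS without overlap. Of 10 tested members 1 was higher, Cd8b1, and none without SUS 36 or without CON 38, and the median was 0.76. Cd3e and Trac, which define T cells, were under the filter, at 0.0337 to 0.462 and 0 to 1.17 CPM in CON and at 0 to 1.49 and 0 to 0.604 CPM in SUS. Of 13 monocyte markers, 5 were higher with a median of 0.63, and the sums were 48.5 to 70.1 CPM in CON and 64.4 to 152 CPM in SUS. Lyz2, the lysozyme of myeloid cells, ran from 14.7 through 26.0 to 30.0 CPM in CON and from 25.4 through 41.3 to 82.1 CPM in SUS (log2 fold change 0.93, SE 0.25), and Fcgr3, an Fc receptor, was at 3 to 7 counts in CON and at 14 to 131 counts in SUS. Of 2 tested neutrophil markers 1 was higher, with sums of 0.202 to 2.71 CPM in CON and 0.800 to 12.0 CPM in SUS, and of 11 dendritic cell markers 1, with sums of 445 to 551 CPM and 520 to 594 CPM. Of the dendritic cell markers, 5 are also in the lists of B cell genes.

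Red cell markers summed to 1196 to 7032 CPM in CON and 2726 to 11459 CPM in SUS, and 5 of 9 members were higher with a median of 1.06. Without SUS 48, 3 were higher with a median of 0.61, and without CON 38, 9 were higher with a median of 1.45. Platelet markers summed to 52.1 to 82.2 CPM in CON and 60.8 to 209 CPM in SUS, and 6 of 12 members were higher with a median of 0.79, while 3 were higher without SUS 48. Library SUS 48 had the highest red cell, platelet and monocyte sums as well as the highest Socs3, Rsad2, Bcl2l1 and Fam213a. The part of other cells in the differences of Rsad2, Bcl2l1, Fam213a and the interferon list was not tested beyond the values with the red cell covariate and without SUS 48.

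**Figure D4:**
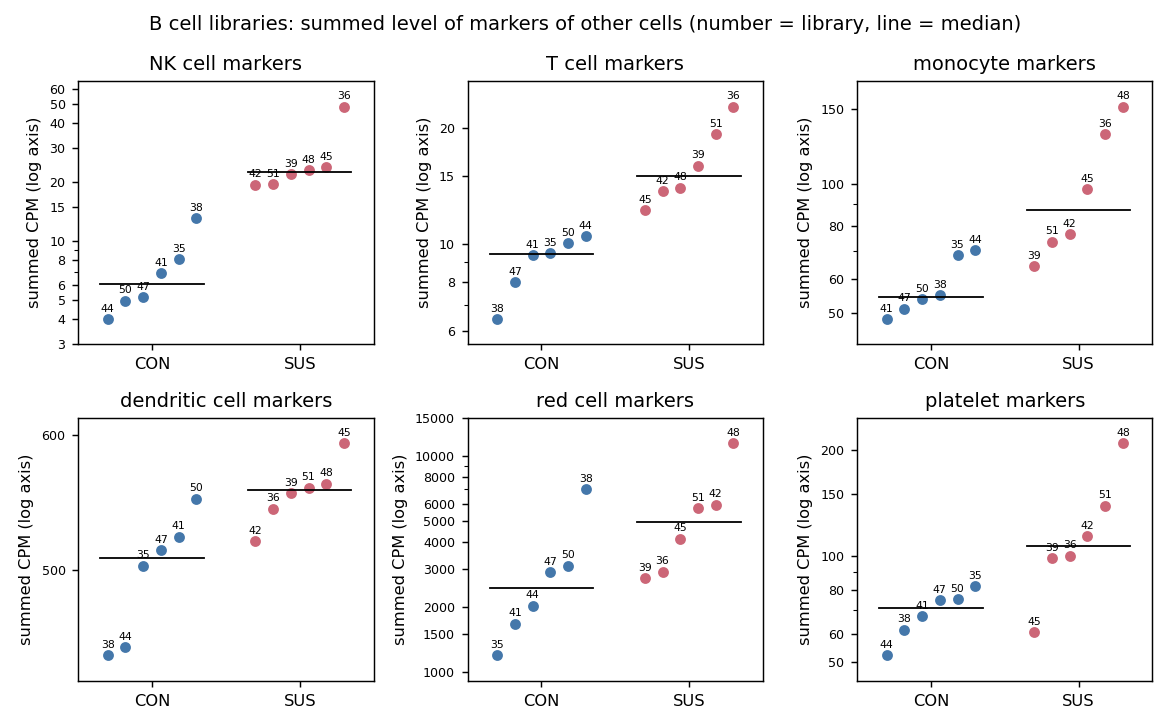
Summed CPM of the marker genes of NK cells, T cells, monocytes, dendritic cells, red cells and platelets in the 6 CON and 6 SUS B cell libraries. NK cell sums (4.02 to 13.2 against 19.5 to 48.8 CPM) and T cell sums (6.43 to 10.5 against 12.3 to 22.7 CPM) did not overlap, while the other sums did.

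The level of Socs3 in SUS B cells is given beside the levels of T cell and monocyte genes in the same libraries. In the 24-library fit with Ly6C-high monocytes, 6 monocyte genes in SUS B cells were at 0.158% (Chil3) to 0.715% (Ly6c2) of their level in SUS monocytes, with Lyz2 at 0.253%. Those shares of monocyte Socs3, which averaged 243 CPM, come to 0.385 to 1.74 CPM, while Socs3 in SUS B cells averaged 25.8 CPM. In the fit with T cells, 6 T cell genes were at 0.0757% (Trac) to 3.75% (Lck) of their level in SUS T cells, with Cd3d at 0.885% and Thy1 at 0.328%. Those shares of T cell Socs3, which averaged 218 CPM, come to 0.165 to 8.16 CPM, with 1.93 CPM at the share of Cd3d. Lck, at the upper end, is outside the list of T cell markers. In CON the shares were 3.31% for Lck, 0.5% for Cd3d, 0.112% for Thy1 and 0.0862% for Trac. Against CON monocytes they were 0.0797% for Chil3, 0.184% for Lyz2 and 0.818% for Ly6c2. The CPM ranges above use SUS shares alone and are no bound on the difference between SUS and CON. Socs3 levels of sorted NK cells, neutrophils, platelets and red cells were not analysed here, and the part of RNA from other cells in the difference of Socs3 was not tested.

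The SUS and CON libraries of T cells and of Ly6C-high monocytes, 6 in each group, were fitted with the B cells to test whether the change in B cells differed. The cell types have separate control libraries, and the 24 libraries of each fit were treated as independent because the labels name no mouse. If cell types were sorted from the same mice, the SE and p-values of these differences leave that pairing out. Between B cells and T cells, 3 of 19221 genes (0.0156%) differed at an edgeR adjusted p under 0.05, all 3 with a larger change in B cells. Nkg7 differed by 2.23 (SE 0.36, adjusted p = 0.0155), with 50.0 to 88.4 CPM in CON and 54.0 to 92.9 CPM in SUS T cells. In B cells Nkg7 averaged only 0.526 CPM in CON and 2.57 CPM in SUS. The others were Gprin3 and Gpc1, whose CON B cell libraries held at most 1 count. Gprin3 averaged 0.605 CPM in SUS B cells and 38.9 CPM in SUS T cells, and Gpc1 0.277 and 9.23 CPM. All 3 were thus at trace level in B cells, and the part of RNA from other lymphocytes in these differences was not tested. Between B cells and Ly6C-high monocytes, 561 of 18871 genes (2.97%) differed, 149 with a change more positive in B cells and 412 less. In 503 of the 561 the absolute change was larger in the monocytes, and 502 of the 561 had an edgeR adjusted p under 0.05 in the monocytes themselves.

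Socs3 passed the threshold in T cells and in Ly6C-high monocytes, higher in SUS in both. In T cells it stood at 58.4 to 80.4 CPM in CON and at 128 to 325 CPM in SUS (log2 fold change 1.74, SE 0.25, edgeR adjusted p = 0.00242). In Ly6C-high monocytes it stood at 20.9 to 41.6 CPM in CON and at 97.4 to 444 CPM in SUS (2.93, SE 0.36, edgeR adjusted p = 3.17e-05). The change in B cells minus that in T cells was -0.15 (SE 0.35, 95% interval -0.88 to 0.57, adjusted p = 1), and minus that in the monocytes -1.33 (SE 0.48, adjusted p = 0.117). SUS B cells held 12.1% of the Socs3 level of SUS T cells and 10.6% of that of SUS monocytes.

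Bmf and Cd93 were lower in SUS in B cells and higher in SUS in the monocytes. Bmf was higher by 0.55 on the log2 scale in Ly6C-high monocytes (SE 0.15, edgeR adjusted p = 0.0123), and the change in B cells minus that in monocytes was -1.25 (SE 0.21, edgeR adjusted p = 0.00305). Cd93, which monocytes also express, was higher by 0.63 in monocytes (SE 0.19, edgeR adjusted p = 0.0208), with a difference of -1.52 (SE 0.26, edgeR adjusted p = 0.00441). In T cells Bmf differed by -0.04 (SE 0.26), and the difference between the cell types did not pass the threshold (-0.67, SE 0.36, edgeR adjusted p = 1). Rsad2 differed by -0.39 (SE 0.41) in monocytes and by 1.41 (SE 0.46) in T cells, and its change in B cells was larger than in monocytes by 2.48 (SE 0.59, edgeR adjusted p = 0.0278). SUS 48 stood far above the other SUS B cell libraries in Rsad2. In B cells alone the change of Rsad2 was 0.64 with the red cell covariate, and the interaction was not fitted with that covariate. Cd74 fell by 0.97 on the log2 scale in monocytes (SE 0.12, edgeR adjusted p = 1.49e-05), whereas in B cells it differed by 0.06, a signed difference of 1.03 (SE 0.17).

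**Figure D5:**
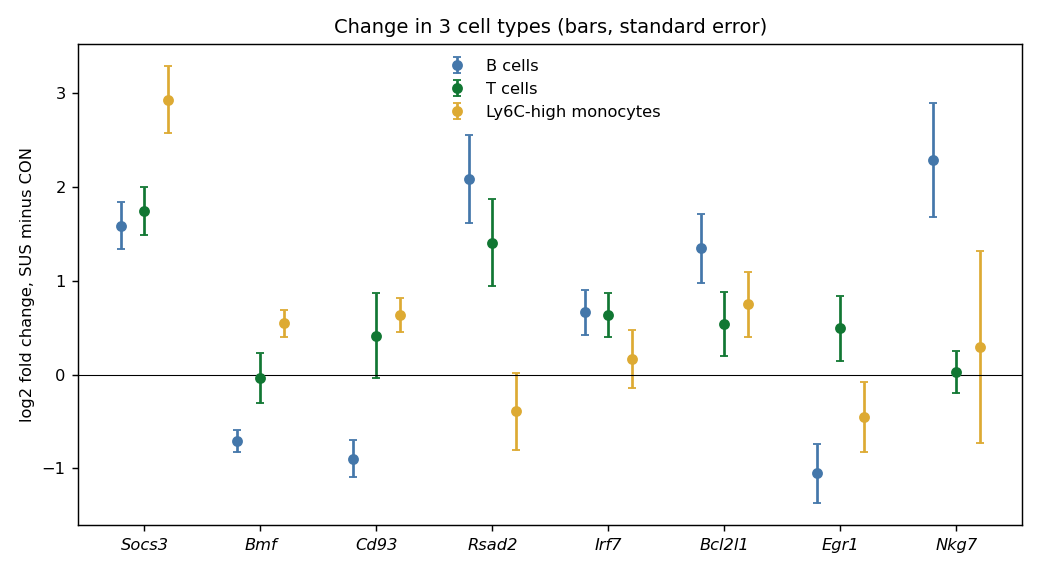
Log2 fold change of SUS over CON with its SE in B cells, T cells and Ly6C-high monocytes (6 libraries per group) for 8 genes. Socs3 was above 0 in all 3 populations, Bmf and Cd93 were below 0 in B cells (-0.71 and -0.89) and above 0 in the monocytes (0.55 and 0.63), and Nkg7 was apart from 0 by more than its SE in B cells and not in T cells.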

How the data were processed

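Leukocytes were sorted into Trizol, and stranded total RNA libraries were made from picogram amounts (SMARTer Pico kit). The authors mapped paired reads to mm10 with HISAT2, counted them on Ensembl genes with HTSeq and deposited raw counts per gene, 1 column per library. The strand setting of the counting was not given in the sources used here. The 12 B cell columns of SUS and CON were matched by library number. 0 columns lacked a sample, and 0 of 66 library pairs were identical. Depth was 30140183 to 42074062 counts per library. The members and gene lists were chosen with earlier results of these data known.

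Genes were kept by filterByExpr of edgeR 4.0.16 (limma 3.58.1, R 4.3.3), scaled by TMM and tested with the robust quasi-likelihood F test and called where the Benjamini-Hochberg adjusted p was under 0.05 and the log2 fold change beyond 1 in either direction. The SE was computed from the log2 fold change and F, as their quotient after taking the root of F, and intervals are not adjusted. CPM are TMM-scaled, with 0.5 CPM added only for logs. Resilient mice were left out of the fit, since library 52 of that group carried T cell markers. The change in B cells was compared with that in T cells or Ly6C-high monocytes by an interaction term over 24 libraries, treated as independent. Shares per library were compared by an exact permutation test over 924 assignments, 2-sided, whose smallest p is 0.00216. The steps were tested on simulated data.

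The genes named are the B cell markers, the genes without overlap between groups and a mean of at least 50 counts (10 per direction by p), DESeq2 calls, the highest member and those with the smallest p of each list, the most variable genes, and genes that differed in an interaction. Beyond this rule, Il10, Il6, Tbx21, Jchain, Mki67, Isg15, Ifit3 and further list members were named for their known roles after their values were seen. Gene positions are from GENCODE M21 (52489 of 52636 identifiers matched) and promoters from RefSeq on GRCm38.p6. Alternatives were DESeq2 1.42.0, its size factors within edgeR, other count filters, added resilient libraries, removal of mitochondrial, haemoglobin and ribosomal RNA genes, thinning to equal depth, and each library left out. Some results are not reported here.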

Additional observations from a re-analysis of the deposited data

Results flagged for a closer look

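A single library stood apart from the other 5 of its group in 12 of 60 groups of 6 tested, by the critical value of Dixon's test for 6 samples. That value would set about 1 group in 20 apart if values were normally distributed and groups independent. Here CPM were not put on a log scale, genes tested were picked from these same results, and marker sums share genes with single-gene groups. The rate of 1 in 20 is therefore no reference for the 12, which only point to libraries to look at. In CON, library 38 was apart in its lambda share (23.4% against 19.2% to 20.3%), its median correlation with the other libraries (0.940), its red cell marker sum (7032 CPM) and its basophil marker sum (1.38 CPM). In CON 50, class-switched genes made up 1.12% of heavy chain constant counts, against at most 0.585% in the other CON libraries. CON 47 was apart in Cd93, at 13.4 CPM.

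In SUS, library 48 was apart in its red cell marker sum (11459 CPM), in Rsad2 (157 CPM) and in Bcl2l1 (65.4 CPM). SUS 36 was apart in its NK cell marker sum (48.8 CPM) and in Gzma (18.0 CPM), and SUS 51 in Bcl2 (38.7 CPM against 64.1 to 74.1 CPM).

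The change from CON to SUS differed between B cells and T cells in 3 genes by the interaction test of edgeR. The log2 change in B cells minus that in T cells was 2.23 for Nkg7, 6.47 for Gprin3 and 4.71 for Gpc1. The last 2 values depend on the prior count, since CON B cells held at most 1 count of each gene, and they are no bound. Against Ly6C-high monocytes 561 genes differed. The change in B cells minus that in the monocytes was 2.24 for Slamf7, 4.45 for Klrb1f, 1.03 for Cd74, 3.13 for Fcgr3 and 2.48 for Rsad2. It was -4.26 for Lamc1, -1.78 for Il4ra, -1.30 for Ppp2cb, -1.25 for Bmf and -1.52 for Cd93. Klrb1f and Fcgr3 were at trace level in B cells. Klrb1f averaged 0.117 CPM in CON and 1.66 CPM in SUS B cells, and Fcgr3 0.134 and 2.08 CPM. The part of RNA from other cells in the differences of Klrb1f and Fcgr3 was not tested. The value of 7.75 for Ighj4 depends on the prior count, since SUS monocytes were at 0, and is no bound.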

How the results depend on the processing

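The number of genes called between SUS and CON B cells was 0 in the reported fit and 36 with DESeq2. It was 1 with DESeq2 size factors in edgeR, with at least 10 counts in every library, with 5 resilient libraries added, with the named RNA classes removed and with libraries thinned, and that gene was Socs3 each time. With no filter it was 2, Gzma and Socs3. Leaving out single libraries gave 0 to 1, with Socs3 called without CON 50 or SUS 51. Alternatives chosen after seeing the data were a fit without CON 38, SUS 48 and SUS 51, which called 1 gene, Rsad2, and fits with the red cell marker level as a covariate or with the classes of Gm23935 and Gm26917 share. At an unadjusted p under 0.05, 263 genes were higher and 206 lower, against 608 and 398 with DESeq2, 2663 and 1350 without a filter, 528 and 671 without those 3 libraries, and 565 and 437 with the covariate.

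The 3 genes that differed from T cells became 8 with all 70 libraries, 0 with at least 10 counts in every library, 47 with DESeq2, and 1 to 7 with single libraries left out (1 without CON 41 or CON 47, 7 without SUS 36). The 561 that differed from monocytes became 1014, 356 with DESeq2 size factors, 1143 with DESeq2, and 256 to 937 with single libraries left out (256 without SUS 45, 937 without SUS 51). The cause was not tested.

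Of 1129 values for 87 genes under alternatives, 1094 kept direction and side of the threshold, 21 newly passed it and 14 reversed. Since no gene passed the threshold in the reported fit, none could fall back from it, and the 1094 include values much nearer 0. Bcl2l1, for example, went from 1.35 to 0.15 with the red cell covariate, so this count does not measure how stable the sizes were. With the red cell covariate the log2 fold change was -0.18 for Mzb1, -0.0326 for Tsc22d3, -0.0018 for Per1, -0.0716 for Cd74, -0.23 for Hba-a1 and -0.0151 for Ppbp. Without the 3 libraries it was -0.17 for Per1 and -0.16 for Cd74. Where the Gm share was over 20%, it was -0.0333 for Mzb1 and -0.0115 for Per1, and where under 20%, -0.0861 for Tsc22d3. With single libraries left out it was -0.0376 to 0.17 for Mzb1, -0.0421 to 0.16 for Per1 and -0.0363 to 0.0975 for Cd74, lowest without SUS 51.

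With single libraries left out, the SUS minus CON difference was 0.113 to 0.279 percentage points for the switched share (exact permutation p = 0.0476 without CON 50), 0.14 to 0.25 for the log2 ratio of Ighd to Ighm (p = 0.039 without SUS 48 in the exact test), -4883672 to -2594376 for total counts (exact p = 0.0281 without SUS 39) and -1.80 to 4.42 percentage points for the Gm23935 and Gm26917 share, below 0 without CON 35, CON 41, SUS 45 or SUS 51. No paired analysis of SUS and CON was made, since defeated and undefeated mice are different animals and the labels give no pairing between them.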
